A study of Mus musculus with 8 samples.

Results

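The 37 genes described here encode ATP-dependent chromatin remodellers outside the BAF (SWI/SNF) family, with their partner subunits, and were read in mouse oocytes with and without BAF250a. They were taken from a fixed list of symbols and matched by Ensembl identifier, 37 of 54838 genes in the table. Of the 37, 36 held enough reads to be tested. Gene-level RNA-seq counts covered 8 libraries of 5 to 10 oocytes each, with 2 libraries in each of 4 groups. The groups were BAF250aGKO oocytes in second meiotic metaphase (MII), wildtype MII oocytes, BAF250aGKO oocytes at the germinal vesicle (GV) stage and wildtype GV oocytes, all from C57BL/6 mice, and are called knockout and control below. BAF250a is the product of Arid1a, and the knockout was made with Gdf9-cre, which recombines in oocytes, so the cells around the oocyte keep the gene. Mouse ages, the floxed exon and the number of mice behind a library have no entry in the labels. The labels do not tie replicates to separate animals. Every p-value therefore reflects library-to-library spread, which may be technical. Fewer oocytes and less RNA per oocyte cannot be told apart here, and every level is a share of the library's reads and not a number of molecules.

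Chromatin remodellers use ATP to slide, evict, space or exchange nucleosomes, and each family couples a Snf2-type ATPase to its own set of partner subunits. ISWI complexes mainly space nucleosomes, CHD ATPases either act alone or, as CHD3, CHD4 and CHD5, drive the NuRD complex that also carries histone deacetylases, and INO80, SRCAP and EP400 complexes move or exchange histone H2A variants with the help of RUVBL and actin-related subunits. Fully grown oocytes stop transcribing before meiosis resumes, so messages made during growth are stored, translated or degraded through maturation.

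Depth was 19587421 to 22686587 reads in genes in the GV libraries and 26005880 to 33289150 in the MII libraries. At these depths, 3 reads, taken as the smallest detectable count, equal 0.0894 to 0.17 CPM, the unit of read counts scaled to a common depth. Mitochondrial genes held 0.1052% to 0.4461% of the reads in genes at GV and 3.029% to 6.931% at MII. The part of these library differences in the results between stages was not tested. Replicate libraries correlated at 0.926 to 0.962 across genes on a log2 CPM scale, and genes are not independent replicates. Arid1a stood at 33.0 and 21.7 CPM in knockout MII libraries, against 1620 and 1290 CPM in control MII libraries, and at 4.87 and 12.9 CPM in knockout GV libraries, against 380 and 458 CPM in control GV libraries, which fits the labels. The 12 oocyte markers summed to 26200 to 30200 CPM in knockout MII and 29400 to 31700 in control MII. At GV they summed to 52700 to 57400 CPM in knockout and 55000 to 59100 in control. None of the 12 was at 0 in any library. The 15 granulosa and cumulus markers summed to 102 to 117 CPM in knockout MII, 134 to 148 in control MII, 64.8 to 85.7 in knockout GV and 124 to 157 in control GV. The 12 blood and immune markers summed to 3.67 to 4.18, 6.42 to 19.3, 37.3 to 52.1 and 63 to 73.5 CPM in the same order, at GV mostly from C1qb, while Ptprc, Lyz2, S100a8 and Cd3e were at 0 in all libraries. The 7 theca and stroma markers summed to 0.403 to 3.23 CPM. The part of these other cells in the results below was not tested.

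Levels between genes are compared here per length, as CPM per kilobase of annotated exon (RPKM). Rbbp7, a WD-repeat histone chaperone shared by NURF and NuRD, was the highest of the 37 in all 4 groups, at 748 ± 133 RPKM in knockout MII, 667 ± 22.4 in control MII, 525 ± 204 in knockout GV and 278 ± 14.3 in control GV (SD, n = 2 each). Rbbp4, its close paralog, stood at 0.167 ± 0.139, 0.127 ± 0.0869, 0.13 ± 0.0635 and 0.0524 ± 0.014 RPKM in the same order. Rbbp4 has 9.1% of its exon bases on the opposite strand of another annotated gene. The strand setting of the counts is unknown, so reads in that part may be lost to it. Alignments that were not unique, 7.824% to 13.03% of reads per library, are also outside the counts. Their part in the low level of Rbbp4 was not tested.

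Among the ISWI ATPases, Smarca5 (SNF2H) was at 10.1 ± 0.867 RPKM in knockout MII, 9.63 ± 0.784 in control MII, 5.12 ± 0.387 in knockout GV and 3.62 ± 1.59 in control GV. Smarca1 (SNF2L) is the member that could not be tested. It held 0 reads in all 4 MII libraries, 0 and 1 read in knockout GV and 0 and 1 read in control GV, all under the floor of 3 reads.

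Chd4, the main NuRD ATPase of most tissues, was at 23.8 ± 3.11 RPKM in knockout MII, 33.8 ± 3.29 in control MII, 33.3 ± 11.3 in knockout GV and 37 ± 9.06 in control GV. Its paralogs Chd3 and Chd5 stayed below 1 RPKM in every group, with group means of 0.572 to 0.705 for Chd3 and 0.0788 to 0.664 for Chd5. Of the MTA scaffolds, which hold the deacetylases, Mta3 was at 40.4 to 54.6 RPKM over the 4 group means, Mta1 at 6.07 to 17.8 and Mta2 at 0.0925 to 0.175. Gatad2a, which bridges the ATPase to the deacetylase core, was at 244 ± 49.7 RPKM in knockout MII, 174 ± 0.35 in control MII, 172 ± 85.3 in knockout GV and 101 ± 21.1 in control GV, above its paralog Gatad2b at 39.1 ± 7.41, 35.4 ± 2.81, 15.6 ± 0.362 and 8.98 ± 1.05.

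In the INO80 group, Ep400 (the ATPase of the TIP60 complex) was at 15.1 to 35 RPKM over the group means and Ino80 at 4.62 to 14. Srcap, the ATPase that loads the histone variant H2A.Z, was close to or at 0. Srcap held 0 and 0 reads in knockout MII, 25 and 0 in control MII, 2 and 20 in knockout GV and 2 and 15 in control GV. Replicates of Srcap differed as much as the groups did. Srcap shares 61.7% of its exon bases with an overlapping gene on the same strand, Gm42715, so reads that fit both are lost to it, and no fold change of Srcap is given below.

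**Figure D1:**
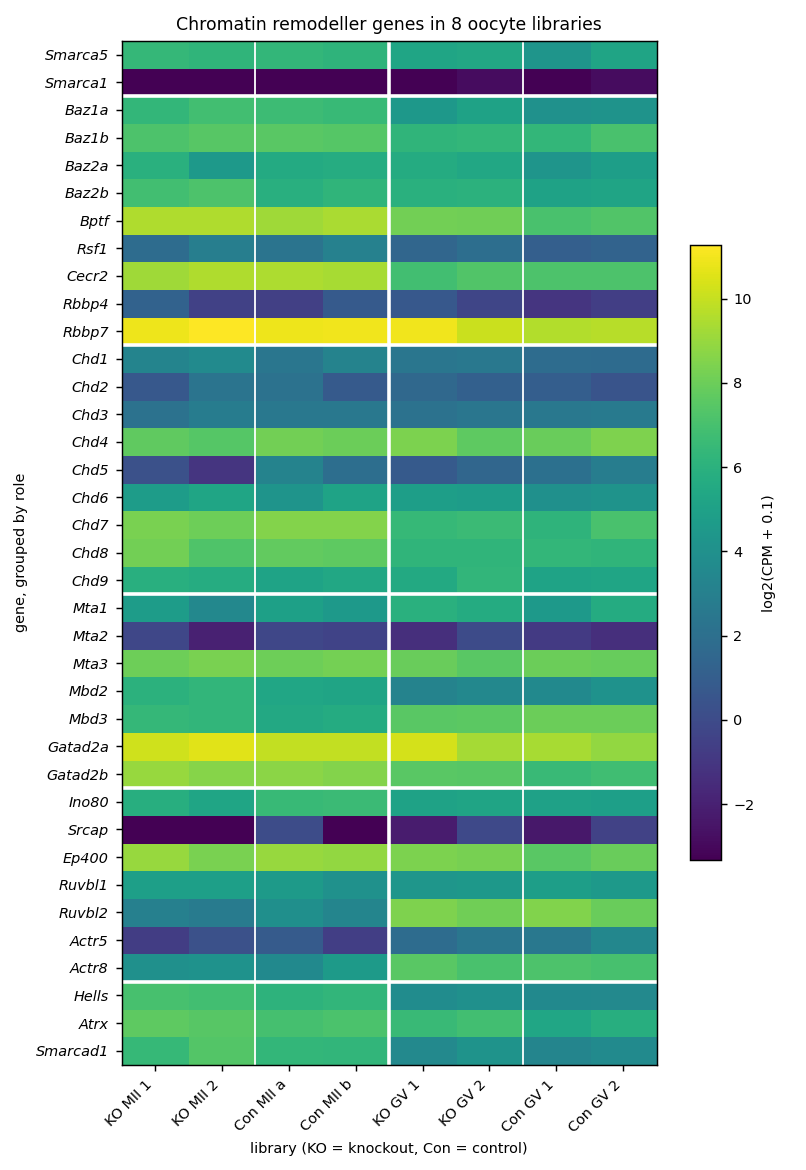
Levels of the 37 genes (rows, grouped by role) in the 8 libraries (columns, knockout left of control and MII left of GV) as log2 of CPM plus 0.1. Rbbp7 and Gatad2a are bright in all columns, Smarca1 and Srcap are dark, and Ruvbl2 is bright only in the 4 GV columns.

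**Figure D2:**
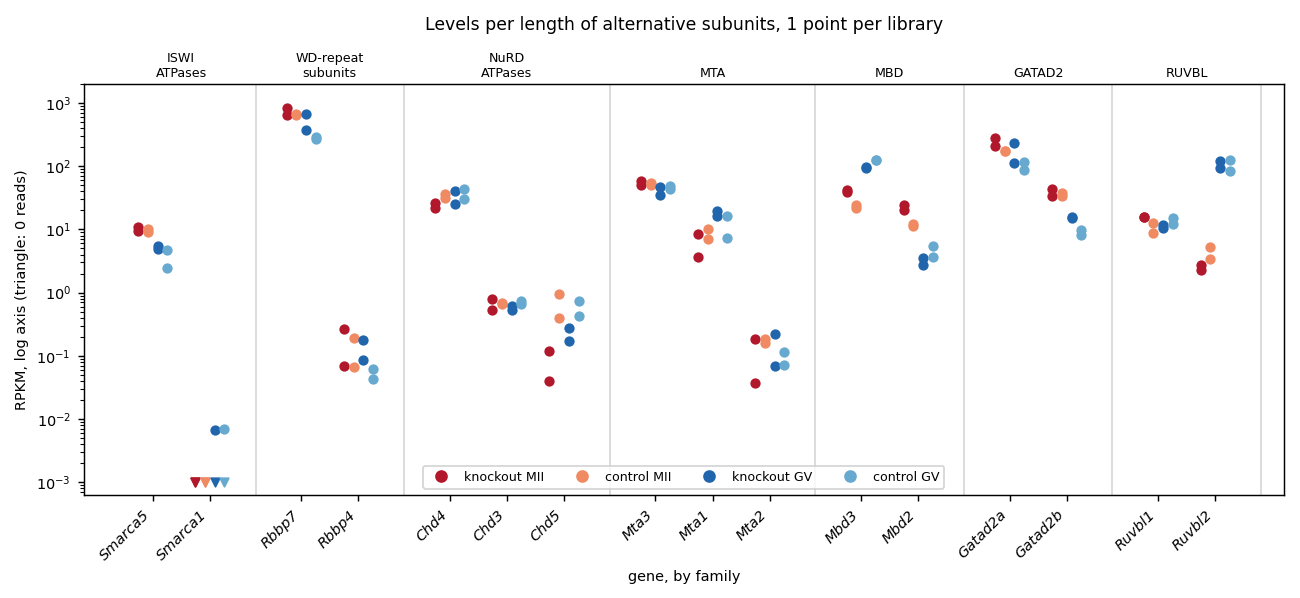
RPKM on a log axis for alternative subunits of 7 families, 1 point per library, with triangles for libraries with 0 reads. Smarca5, Rbbp7, Chd4 and Mta3 lie above their paralogs in every library, while Mbd3 and Mbd2 draw together at MII and Ruvbl2 crosses below Ruvbl1.

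Over the 37 genes, the median level was 8.65 RPKM in knockout MII, 8.67 in control MII, 4.46 in knockout GV and 3.62 in control GV. The same medians over 12981 tested protein-coding genes were 1.4, 1.54, 2.2 and 2.21 RPKM. Above 10 RPKM stood 17 remodeller genes in knockout MII, 17 in control MII, 12 in knockout GV and 11 in control GV. Rsf1, the partner of the RSF complex, was at 0.116 to 0.35 RPKM over the group means, Chd2 at 0.112 to 0.221, Actr5, an INO80 subunit, at 0.199 to 1.94, Chd1, which binds methylated histone tails at active genes, at 0.387 to 1.25, Chd6 at 0.883 to 1.67 and Chd9 at 1.57 to 2.66. Chd2 shares 18.4% of its exon bases with a processed transcript on the same strand.

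The median absolute log2 difference of the members was 1.02 between MII and GV in knockout and 1.27 in control oocytes, and 0.41 at MII and 0.57 at GV between knockout and control oocytes. Over all tested genes these medians were 1.82, 1.78, 0.68 and 0.49, so the member medians between stages were the lower ones. Genes were not matched for level here. The median level was 8.67 RPKM over the members and 1.54 over tested protein-coding genes in control MII. In knockout oocytes 18 of 36 passed (13 higher and 5 lower at MII) where 49% of all 15572 tested genes did (19.9% higher and 29.1% lower), by edgeR's quasi-likelihood test with Benjamini-Hochberg adjusted p below 0.05 and n = 2 per group. In control oocytes 19 of 36 passed (15 higher and 4 lower), where 49.1% of all genes did (21.2% higher and 27.9% lower). The share that changed was thus close to that of all genes, and more of the members lay on the higher side. The median log2 difference between MII and GV was 0.47 over the members and -0.33 over all genes in knockout oocytes, and 1.01 and -0.20 in control oocytes. Srcap lies below the member median in knockout oocytes at its fitted value and at the bound that 0 reads allow, so that choice cannot move the median. Both MII libraries lay above both GV libraries for 17 members in knockout and 24 in control oocytes (47.2% and 66.7%, against 33.3% and 34.8% of all genes), and below them for 7 and 4 members (19.4% and 11.1%, against 43.6% and 43.1%).

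In both genotypes 12 members rose at MII, namely Smarca5, Baz1a, Baz2b, Bptf, Cecr2, Chd7, Chd8, Mbd2, Gatad2b, Hells, Atrx and Smarcad1. A further 4 fell in both, namely Mbd3, Ruvbl2, Actr5 and Actr8. That is 33.3% and 11.1% of the tested members, beside 16.4% and 22.3% of all genes. In knockout oocytes Baz1b passed as higher and Mta1 as lower, and in control oocytes Rbbp7, Ino80 and Ep400 passed as higher. A pass in 1 genotype alone does not show a difference between genotypes, which is tested separately below. The log2 differences of the 36 members had the same sign in knockout and control oocytes for 29, with a Spearman correlation of 0.828 across genes (0.786 and 13211 of 15572 over all genes), given as a description because the genes share libraries.

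**Figure D3:**
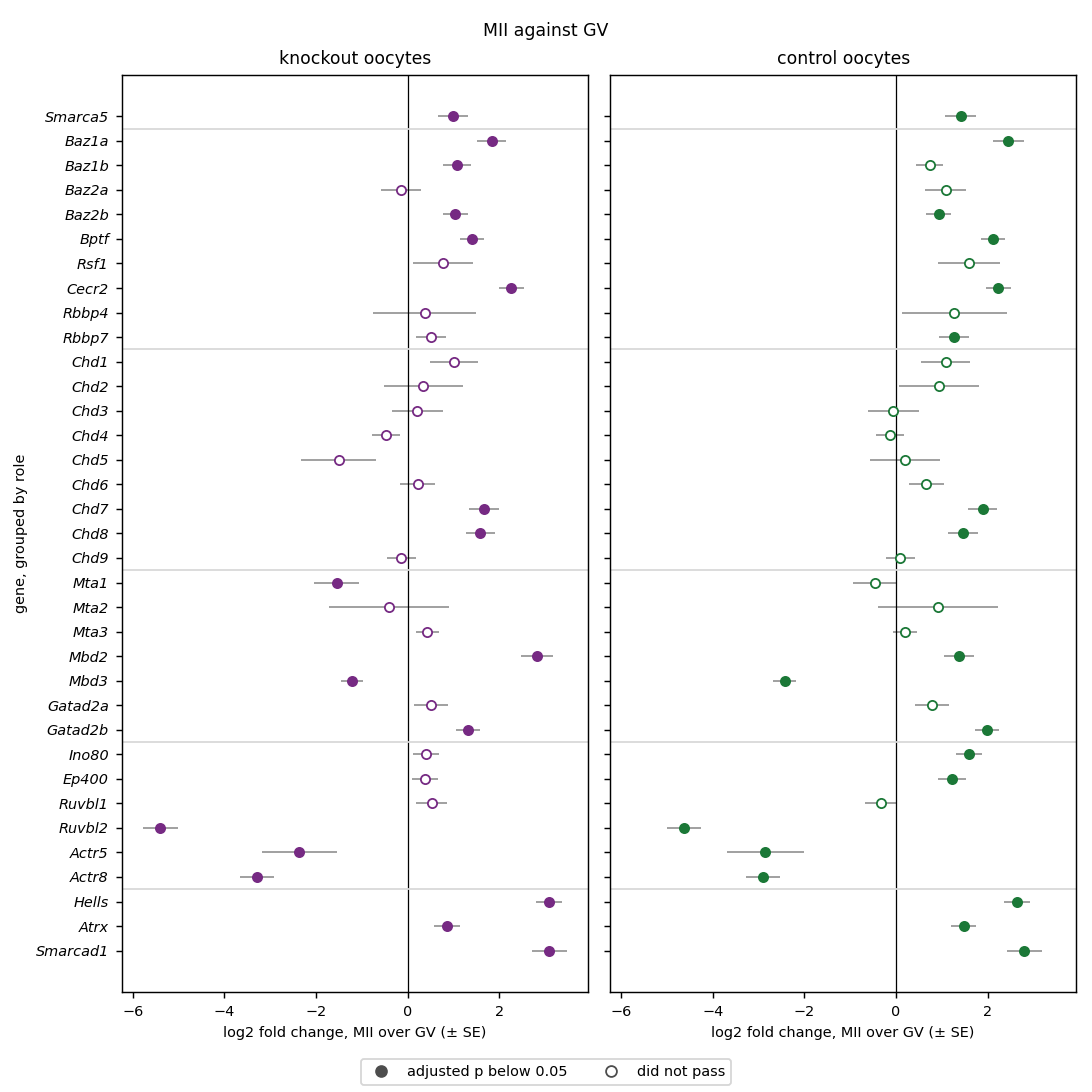
Log2 fold change of MII over GV (± SE) for 35 tested members in knockout oocytes (left) and control oocytes (right), filled where the adjusted p is below 0.05. Srcap is left out because knockout MII libraries held 0 reads. Ruvbl2, Actr8 and Actr5 lie farthest left in both panels and Smarcad1 and Hells farthest right.

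The 3′ ends of these messages are shown because poly(A) tails of some stored oocyte messages are lengthened at maturation where a cytoplasmic polyadenylation element (CPE) lies close to the poly(A) signal. The last bases of 1 annotated transcript per gene (GENCODE M21, mm10) were searched on the transcript strand for a poly(A) signal (AATAAA or ATTAAA) starting in the last 40 bases, and for a CPE (TTTTAT or TTTTAAT, which may overlap the signal) in the 100 bases before it. Capitals mark the CPE and the signal in 3 genes that rose in both genotypes, and the signal, with no CPE in that window, in 2 that fell.
Smarcad1: taTTTTATtatgtcttgggtttAATAAAaa
Baz2b: agTTTTATttaaAATAAAat
Chd7: gcTTTTAATAAAag
Mbd3: gaagtcactttccttcAATAAAct
Actr8: gcttaattttcctagaATTAAAtt

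Of the members that rose in both genotypes, 9 of 12 had a signal and 4 of those 9 a CPE (Baz2b, Chd7, Mbd2 and Smarcad1). Of those that fell in both, 2 of 4 had a signal and 0 of those 2 a CPE. Over all tested protein-coding genes 1989 of 9866 with a signal had a CPE (20.2%). The share was 33.4% of 1977 genes that rose in both genotypes and 6.75% of 2001 that fell in both. Members that neither rose nor fell in both also carried the motif (7 of 17), so it was not limited to members that rose. The annotated 3′ untranslated region had a median of 1492.5 bases in the 12 members that rose (118 to 4773) and 270.5 bases in the 4 that fell (115 to 485), and 1497 and 538 bases over all genes that rose or fell in both. These matches describe letters in annotated transcripts and not sites in use. The labels do not say whether libraries were poly(A)-selected, and the part of tail length in the read counts was not tested.

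Among ISWI genes, Smarca5 and 4 of 9 partners (Baz1a, Baz2b, Bptf and Cecr2) rose at MII in both genotypes, Baz1b passed as higher in knockout and Rbbp7 in control oocytes, and none passed as lower. Smarca5, the ATPase of most ISWI complexes, was at 83.5 and 74.0 CPM in knockout MII against 37.7 and 41.9 CPM in knockout GV, and at 79.2 and 70.6 CPM in control MII against 19.4 and 36.9 CPM in control GV. All 4 MII libraries lay above all 4 GV libraries. The log2 fold change was 0.98 ± 0.33 (SE) in knockout oocytes (adjusted p = 0.0317) and 1.41 ± 0.34 in control oocytes (adjusted p = 0.00606). Leaving out any of the 4 knockout libraries ended the knockout call of Smarca5, with log2 fold changes of 0.85 to 1.09 and adjusted p of 0.0504 to 0.14.

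Cecr2, the partner in the CERF complex, rose the most of the ISWI group in knockout oocytes. Cecr2 stood at 571 and 733 CPM in knockout MII against 117 and 156 CPM in knockout GV (2.26 ± 0.28, adjusted p = 0.00014), and at 716 and 660 CPM in control MII against 145 and 148 CPM in control GV (2.23 ± 0.28, adjusted p = 0.00016). Libraries of the genotypes overlapped at both stages. Bptf, the large NURF subunit that reads methylated histone H3, stood at 727 and 732 CPM in knockout MII against 280 and 269 CPM in knockout GV (1.41 ± 0.26, adjusted p = 0.00131). In control oocytes Bptf stood at 582 and 686 CPM at MII against 135 and 160 CPM at GV (2.11 ± 0.26, adjusted p = 0.000154). The control GV libraries were the lowest of the 8.

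Baz1a (ACF1), the spacing-complex partner, rose by 1.83 ± 0.32 in knockout oocytes (adjusted p = 0.000994) and 2.45 ± 0.33 in control oocytes (adjusted p = 0.000215). Its levels were 97.7 ± 24.2 CPM in knockout MII against 27.4 ± 8.11 in knockout GV and 96.0 ± 9.46 CPM in control MII against 17.5 ± 0.975 in control GV. Baz2b, a bromodomain partner, rose by 1.04 ± 0.27 (adjusted p = 0.00959) and 0.93 ± 0.27 (adjusted p = 0.0168), and lost the knockout call without knockout GV library 1 (adjusted p = 0.0568) and the control call without control GV library 1 (0.0786) or control MII library b (0.138). Baz1b (WSTF) stood at 160 ± 21.6 CPM in knockout MII against 76.3 ± 4.25 in knockout GV (1.07 ± 0.30, adjusted p = 0.014) and at 180 ± 9.77 CPM in control MII against 109 ± 40.1 in control GV (0.73 ± 0.30, adjusted p = 0.0663). Its knockout call ended without either knockout GV library or knockout MII library 2 (adjusted p of 0.0513 to 0.0702). Rbbp7 stood at 1900 and 2450 CPM in knockout MII against 1950 and 1110 in knockout GV, where the groups overlapped (0.51 ± 0.33, adjusted p = 0.22). In control oocytes Rbbp7 stood at 1890 and 1990 CPM at MII against 778 and 837 CPM at GV (1.26 ± 0.33, adjusted p = 0.0104), a call lost without control GV library 1 (0.0568) or control MII library b (0.0634). Baz2a (TIP5), the partner at ribosomal DNA, differed by -0.15 ± 0.43 in knockout and 1.08 ± 0.44 in control oocytes, Rsf1 by 0.77 ± 0.66 and 1.59 ± 0.67, and Rbbp4 by 0.37 ± 1.12 and 1.27 ± 1.15, and none of these passed.

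Of the 9 CHD genes, Chd7 and Chd8 rose in both genotypes and the other 7 did not pass in either. Chd7, whose human counterpart is mutated in CHARGE syndrome, stood at 318 and 262 CPM in knockout MII against 86.0 and 96.7 CPM in knockout GV (1.66 ± 0.32, adjusted p = 0.00187). In control oocytes it stood at 369 and 379 CPM at MII against 70.6 and 132 CPM at GV (1.89 ± 0.32, adjusted p = 0.000959). Chd8, its close relative, stood at 288 and 153 CPM in knockout MII against 73.3 and 73.9 CPM in knockout GV (1.58 ± 0.32, adjusted p = 0.00229), and at 218 and 203 CPM in control MII against 79.6 and 73.0 CPM in control GV (1.46 ± 0.32, adjusted p = 0.00366). MII libraries of both genes lay above all GV libraries. Chd4 differed by -0.48 ± 0.31 in knockout and -0.13 ± 0.31 in control oocytes, with overlapping libraries in both genotypes. Chd1 differed by 1.01 ± 0.53 and 1.08 ± 0.53, Chd2 by 0.34 ± 0.86 and 0.94 ± 0.87, Chd3 by 0.21 ± 0.55 and -0.06 ± 0.55, Chd5 by -1.51 ± 0.81 and 0.19 ± 0.77, Chd6 by 0.22 ± 0.38 and 0.66 ± 0.38, and Chd9 by -0.14 ± 0.32 and 0.09 ± 0.32.

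In NuRD, the alternative methyl-CpG-binding subunits moved in opposite directions. Mbd2, which binds methylated DNA, stood at 65.1 and 77.5 CPM in knockout MII against 8.95 and 11.3 CPM in knockout GV (2.82 ± 0.34, adjusted p = 0.000122), and at 39.1 and 36.8 CPM in control MII against 11.9 and 17.4 CPM in control GV (1.37 ± 0.33, adjusted p = 0.00604, and 0.0523 without control GV library 1). Mbd3, which in mammals does not bind methylated DNA selectively and replaces MBD2 in a separate form of the complex, stood at 84.0 and 77.9 CPM in knockout MII against 186 and 190 CPM in knockout GV (-1.22 ± 0.24, adjusted p = 0.00216). In control oocytes Mbd3 stood at 44.2 and 49.2 CPM at MII against 251 and 253 CPM at GV (-2.43 ± 0.25, adjusted p = 5.7e-05). No library of either gene crossed between stages. Per length, the ratio of Mbd3 to Mbd2 was 2.09 and 1.63 in knockout MII, 1.83 and 2.16 in control MII, 33.6 and 27.2 in knockout GV and 34.1 and 23.5 in control GV. The ratio thus separated the stages and overlapped between genotypes at each stage.

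Gatad2b stood at 507 and 387 CPM in knockout MII against 182 and 176 CPM in knockout GV (1.32 ± 0.26, adjusted p = 0.00219), and at 428 and 382 CPM in control MII against 94.3 and 111 CPM in control GV (1.98 ± 0.27, adjusted p = 0.00024). Its paralog Gatad2a, the more abundant per length, differed by 0.50 ± 0.37 in knockout and 0.79 ± 0.37 in control oocytes and did not pass. Mta1 stood at 26.4 and 11.3 CPM in knockout MII against 60.8 and 50.0 CPM in knockout GV (-1.55 ± 0.49, adjusted p = 0.0229), and at 31.5 and 22.3 CPM in control MII against 23.0 and 51.0 CPM in control GV, where the libraries overlapped (-0.46 ± 0.48, adjusted p = 0.446). The knockout call of Mta1 ended without either knockout GV library (adjusted p = 0.104 and 0.0561) or knockout MII library 2 (0.119), and its log2 fold change was -2.33 without knockout MII library 1. Mta3 differed by 0.43 ± 0.26 and 0.19 ± 0.26, and Mta2, at under 1 CPM in every library, by -0.41 ± 1.30 and 0.91 ± 1.31.

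INO80-type subunits held the largest falls of the 37 genes. Ruvbl2 (mm10 chr7:45421760-45438096, minus strand), an AAA+ ATPase that forms a ring with RUVBL1 in INO80, SRCAP and TIP60 complexes, stood at 7.92 and 6.64 CPM in knockout MII against 347 and 269 CPM in knockout GV, and at 15.2 and 9.71 CPM in control MII against 365 and 248 CPM in control GV. Every MII library was far below every GV library. The log2 fold change was -5.40 ± 0.38 in knockout oocytes (42.3-fold lower, adjusted p = 7.09e-06) and -4.62 ± 0.37 in control oocytes (24.6-fold lower, adjusted p = 1.77e-05). Ruvbl1 did not fall with its ring partner, at 30.4 and 29.6 CPM in knockout MII against 19.9 and 22 in knockout GV (0.52 ± 0.34, adjusted p = 0.234) and 24.4 and 16.5 CPM in control MII against 29.1 and 22.8 in control GV (-0.34 ± 0.34, adjusted p = 0.427). Per length, the ratio of Ruvbl2 to Ruvbl1 was 0.17 and 0.147 in knockout MII, 0.408 and 0.385 in control MII, 11.4 and 8 in knockout GV and 8.21 and 7.12 in control GV. Ruvbl2 shares 10.7% of its exon bases with Gys1 on the opposite strand. Gys1 itself held 639 and 523 reads in knockout MII, 807 and 1134 in control MII, 704 and 984 in knockout GV and 1654 and 1697 in control GV.

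Actr8 (mm10 chr14:29978337-30006354, plus strand), an actin-related subunit of INO80 that contacts linker DNA, stood at 15.8 and 16.9 CPM in knockout MII against 182 and 137 CPM in knockout GV (-3.29 ± 0.38, 9.77-fold lower, adjusted p = 8.39e-05). In control oocytes Actr8 stood at 12.2 and 24.8 CPM at MII against 146 and 130 CPM at GV (-2.90 ± 0.37, 7.44-fold lower, adjusted p = 0.00017), and the log2 fold change was -3.58 without control MII library b. The stages did not overlap, and the genotypes did at both. Actr8 shares 1.57% of its exon bases with Il17rb on the opposite strand. Il17rb held 78 and 103 reads in knockout MII and 131 and 3 in control MII. At GV it held 894 and 1052 reads in knockout and 983 and 1138 in control. The part of Il17rb in the Actr8 counts was not tested. Actr5, the other INO80-specific actin-related subunit, fell by 2.37 on the log2 scale in knockout (SE 0.82, adjusted p = 0.0354) and by 2.85 in control oocytes (SE 0.83, adjusted p = 0.0172), on 17 to 44 reads per MII library and 60 to 252 reads per GV library. Its knockout call was lost without either control GV library, either knockout GV library or knockout MII library 1 (adjusted p of 0.0628 to 0.156) and its control call without control GV library 2 (0.123) or control MII library b (0.0579). The log2 fold change of Actr5 was -2.98 in knockout oocytes without knockout MII library 2 and -3.87 in control oocytes without control MII library a.

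The ATPases Ino80 and Ep400 rose in control oocytes. Ino80 stood at 55.3 and 37.5 CPM in knockout MII against 33.5 and 37 CPM in knockout GV (0.40 ± 0.29, adjusted p = 0.276), and at 92.1 and 97.7 CPM in control MII against 32.8 and 30.1 CPM in control GV (1.59 ± 0.29, adjusted p = 0.00145). Control MII was the high group, and knockout MII library 2 lay just above the GV libraries. Ep400 stood at 507 and 321 CPM in knockout MII against 329 and 306 CPM in knockout GV, with overlap (0.38 ± 0.29, adjusted p = 0.3). In control oocytes Ep400 stood at 511 and 467 CPM at MII against 182 and 239 CPM at GV (1.22 ± 0.30, adjusted p = 0.00716), a call lost without control GV library 1 (0.054) or control MII library a (0.051).

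The 3 remaining Snf2-type ATPases all rose in both genotypes. Hells (LSH; mm10 chr19:38930915-38971051, plus strand), which is needed for DNA methylation at repeats, stood at 131 and 116 CPM in knockout MII against 13.5 and 15.7 CPM in knockout GV (3.08 ± 0.28, 8.48-fold higher, adjusted p = 2.39e-05). In control oocytes Hells stood at 69.8 and 77.5 CPM at MII against 12.1 and 11.7 CPM at GV (2.63 ± 0.28, 6.18-fold higher, adjusted p = 6.48e-05). Smarcad1 (mm10 chr6:65042583-65116061, plus strand), which helps restore silent chromatin after replication, stood at 87.9 and 162 CPM in knockout MII against 11.6 and 17.7 CPM in knockout GV (3.09 ± 0.38, 8.51-fold higher, adjusted p = 0.000131). In control oocytes Smarcad1 stood at 81.0 and 77.9 CPM at MII against 10.0 and 12.7 CPM at GV (2.80 ± 0.38, 6.98-fold higher, adjusted p = 0.00023). Both genes separated the stages with no overlap, and Smarcad1 carries the CPE printed above, starting 20 bases before its poly(A) signal, while no signal was found in the last 40 bases of the Hells transcript searched.

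Atrx, which loads a replication-independent H3 variant with DAXX and binds pericentric heterochromatin in mouse oocytes, stood at 202 and 174 CPM in knockout MII against 94.0 and 113 CPM in knockout GV (0.86 ± 0.28, adjusted p = 0.027), and at 126 and 141 CPM in control MII against 38.8 and 57.1 CPM in control GV (1.47 ± 0.28, adjusted p = 0.00185). The knockout call of Atrx was lost without either knockout GV library or knockout MII library 1 (adjusted p of 0.0544 to 0.138), when libraries were scaled by totals alone (0.0605) and when low counts were not filtered (0.0507).

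**Figure D4:**
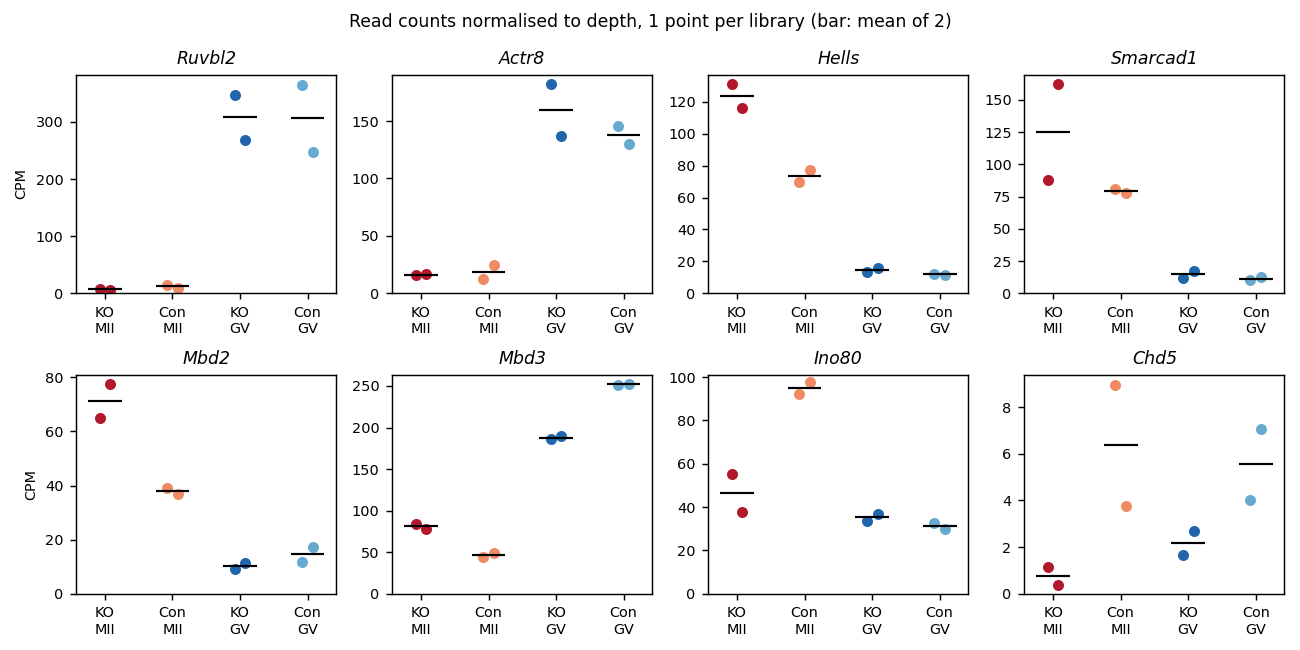
CPM of 8 members in each library, with bars at the mean of 2 libraries and knockout left of control within a stage. Ruvbl2, Actr8 and Mbd3 are high at GV, Hells, Smarcad1 and Mbd2 are high at MII, Ino80 is highest in control MII and Chd5 is lowest in knockout MII.

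Between knockout and control oocytes at GV, 0 of 36 members passed, where 0.989% of all genes did (0.597% higher and 0.392% lower; edgeR quasi-likelihood test). At an unadjusted p below 0.05 there were 6 members and 1687 of all 15572 genes. DESeq2 called 2 members, Atrx and Bptf, both higher, beside 526 of all genes (304 higher and 222 lower). The smallest p was that of Atrx, at 94.0 and 113 CPM in knockout GV against 38.8 and 57.1 CPM in control GV (1.11 ± 0.28, adjusted p = 0.119, and 0.0397 with no filter on low counts). Next came Bptf, at 280 and 269 CPM in knockout GV against 135 and 160 CPM in control GV (0.90 ± 0.26, adjusted p = 0.175), and Baz2b, at 61.7 and 64.9 CPM against 33.4 and 36.6 CPM (0.85 ± 0.27, adjusted p = 0.227). Gatad2b stood at 182 and 176 CPM in knockout GV against 94.3 and 111 CPM in control GV (0.80 ± 0.26, adjusted p = 0.242), and Rbbp7 at 1950 and 1110 CPM against 778 and 837 CPM (0.92 ± 0.33, adjusted p = 0.306). In each of these 5 genes both knockout libraries lay above both control libraries.

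That arrangement was frequent among the members at GV. Both knockout libraries lay above both control libraries for 17 of 36 (47.2%), beside 22.6% of all genes, and below them for 7 (19.4%), beside 23.8%. The median log2 difference was 0.44 over the members and 0 over all genes. It was positive for 24 of 36 members, beside 7725 of all 15572 genes. Scaled by library totals alone, the medians were 0.20 and -0.27 and 21 members were positive. The ISWI partners had the highest median of the roles with more than 3 genes, 0.85 over 9 genes (-0.51 to 1.30), and the CHD family had -0.05 over 9 genes (-1.36 to 0.76). The granulosa and immune marker sums given above were lower in knockout than in control GV libraries. The granulosa sums at GV came mostly from Nr5a2, Cyp19a1 and Inha, while Fshr was higher in both knockout libraries. The part of these other cells in the differences between genotypes was not tested.

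**Figure D5:**
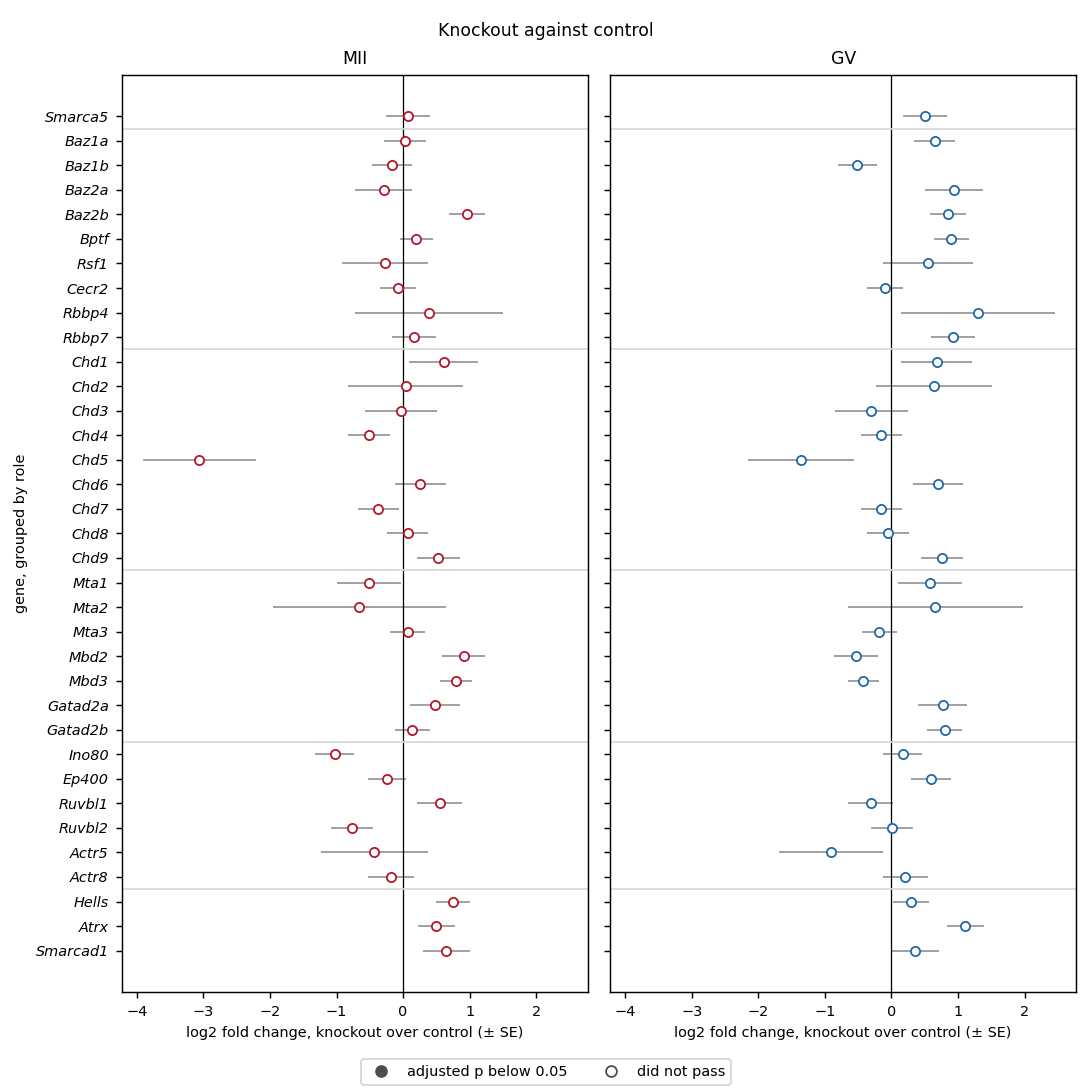
Log2 fold change of knockout over control (± SE) for 35 tested members at MII (left) and GV (right), all open because none had an adjusted p below 0.05. Srcap is left out because knockout MII libraries held 0 reads. Chd5 lies farthest left in both panels, and at GV 24 of the 36 tested members were above 0, beside 7725 of all 15572 genes.

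At MII, again 0 of 36 members passed, where 5.14% of all genes did (1.7% higher and 3.44% lower in knockout), with 8 members and 3450 of all genes at an unadjusted p below 0.05. DESeq2 called 4, beside 1773 of all genes (651 higher and 1122 lower). Of the 4, Baz2b and Mbd3 were higher and Chd5 and Ino80 lower in knockout MII. The fit of the MII libraries alone called 2, Baz2b (adjusted p = 0.0326) and Ino80 (adjusted p = 0.0367), beside 786 of all genes. The member median was 0.05 and that of all genes -0.01. Srcap lies below the member median at its fitted value and at its bound, so that choice cannot move it. Scaled by library totals alone, the member median was -0.03 and that of all genes -0.08, so the sign of the member median at MII depends on the scaling. Both knockout libraries lay above both control libraries for 11 members and below them for 5 (30.6% and 13.9%, beside 21.7% and 24.7% of all genes).

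Chd5 (mm10 chr4:152338651-152390194, plus strand), a NuRD ATPase best known from neurons, had the smallest p at MII. It stood at 1.13 and 0.377 CPM (38 and 10 reads) in knockout MII against 8.96 and 3.77 CPM (233 and 114 reads) in control MII (-3.06 ± 0.85, adjusted p = 0.0685, and 0.0145 with no filter on low counts). The log2 fold change was -2.26 without control MII library a (adjusted p = 0.197), -4.03 without knockout MII library 1 (0.0555) and -2.41 without knockout MII library 2 (0.183). At GV it stood at 1.64 and 2.68 CPM in knockout against 4.04 and 7.08 CPM in control (-1.36 ± 0.80, adjusted p = 0.632). Both knockout libraries lay below both control libraries at each stage. Chd5 lies 18.6 Mb from Arid1a on chromosome 4, and the part of that position in its values was not tested. The other members on that chromosome, Rbbp4 at 4.34 Mb and Chd7 at 125 Mb, differed by 0.39 ± 1.11 and -0.37 ± 0.31 at MII.

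Ino80 stood at 55.3 and 37.5 CPM in knockout MII against 92.1 and 97.7 CPM in control MII (-1.03 ± 0.29, adjusted p = 0.0718). Baz2b stood at 117 and 143 CPM in knockout MII against 58.2 and 75.1 CPM in control MII (0.96 ± 0.27, adjusted p = 0.071). These 2 genes were about as far apart at MII in opposite directions, with no overlap of libraries. Mbd3 stood at 84.0 and 77.9 CPM against 44.2 and 49.2 CPM (0.79 ± 0.24, adjusted p = 0.0897) and Hells at 131 and 116 CPM against 69.8 and 77.5 CPM (0.75 ± 0.26, adjusted p = 0.132). Of the other 3 members with an unadjusted p below 0.05, Mbd2 differed by 0.91 ± 0.32 (adjusted p = 0.134), Ruvbl2 by -0.77 ± 0.32 (adjusted p = 0.197) and Srcap by the reads given above.

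The knockout effect at MII minus that at GV was tested as an interaction, and 0 of 36 members passed, where 0.0835% of all genes did (0.00642% higher and 0.0771% lower). At an unadjusted p below 0.05 there were 3 members (Mbd3, Mbd2 and Ino80) and 1787 of all genes. DESeq2 called Mbd3 (adjusted p = 0.0448), where of all genes it called 111 higher and 244 lower. Mbd3 had the smallest p, with a difference of 1.22 ± 0.34 (adjusted p = 0.221). It was higher in knockout than in control at MII (84.0 and 77.9 against 44.2 and 49.2 CPM) and lower at GV (186 and 190 against 251 and 253 CPM). Mbd2 showed the same arrangement, at 65.1 and 77.5 CPM in knockout MII against 39.1 and 36.8 CPM in control MII, with 8.95 and 11.3 CPM in knockout GV against 11.9 and 17.4 CPM in control GV (1.44 ± 0.46, adjusted p = 0.267). Ruvbl1 was the third gene so arranged, with a difference of 0.86 ± 0.48 (adjusted p = 0.535). Ino80 differed by -1.20 ± 0.41 (adjusted p = 0.301) and Ep400 by -0.83 ± 0.42 (adjusted p = 0.479), and Srcap, whose p lay between those of Ino80 and Ep400, rests on the reads given above. The member median was -0.41 (-0.39 without Srcap) and that of all genes -0.14, and scaled by library totals alone they were -0.18 and 0.07.

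A further 51 genes of the same complexes, or close to these ATPases in family, were counted beside the members. At GV 0 passed by edgeR's quasi-likelihood test, where 0.989% of all genes did. At an unadjusted p below 0.05 there were 5 of the 51 at GV and 1687 of all 15572 genes. At MII 2 were lower in knockout, where 3.44% of all genes were. Chrac1, a histone-fold subunit of the ISWI complex CHRAC, held 0 and 0 reads in knockout MII against 19 and 43 reads in control MII, at least 10.6-fold lower with the floor of 3 reads per library (adjusted p = 0.0227). Chd1l, a remodeller recruited to sites of poly(ADP-ribose), stood at 0.357 and 0.189 CPM in knockout MII against 1 and 2.91 CPM in control MII (-2.80 ± 0.65, adjusted p = 0.0373). Both rest on few reads at MII. At GV, Chrac1 stood at 2.89 and 3.1 CPM in knockout against 2 and 2.01 CPM in control, and Chd1l at 17.1 and 17.6 CPM in knockout against 17.5 and 18.1 CPM in control, and neither passed.

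Between MII and GV, 15 of the 51 rose and 17 fell in knockout oocytes, and 17 rose and 14 fell in control oocytes, with 14 rising and 14 falling in both. Of all genes 19.9% rose and 29.1% fell in knockout oocytes, 21.2% and 27.9% in control oocytes, and 16.4% and 22.3% in both. The genes that fell in both included subunits of INO80 (Ino80b, Ino80e, Tfpt, Uchl5), of SRCAP and TIP60 (Dmap1, Znhit1, Mrgbp, Meaf6, Epc1) and of NURF (Bacc1), with H2afv, which encodes an H2A.Z histone, and the ATPases Smarcal1, Ercc6l and Chd1l. Dmap1 stood at 1.04 and 0.491 CPM in knockout MII against 267 and 170 CPM in knockout GV (-8.12 ± 0.66, adjusted p = 1.29e-05), and at 1.12 and 0.231 CPM in control MII against 190 and 197 CPM in control GV (-8.19 ± 0.67, adjusted p = 2.02e-05). Ino80e stood at 2.89 and 1.17 CPM in knockout MII against 145 and 113 CPM in knockout GV, and at 1.31 and 0.0661 CPM in control MII against 108 and 79.4 CPM in control GV (-5.97 ± 0.83 in knockout and -7.12 ± 0.90 in control oocytes, adjusted p = 0.000253 and 0.000157). These falls were of the size seen in Ruvbl2 or larger, and no library crossed between stages.

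The genes that rose in both were Cdk2ap2, a NuRD-associated protein, Pole3, the partner of CHRAC1, Ino80d and Nfrkb of INO80, Vps72 and Yeats4 of SRCAP, Ing3, Brd8, Mbtd1, Morf4l1 and Morf4l2 of TIP60, H3f3b, which encodes a replication-independent H3, and the ATPases Shprh and Zranb3. Ino80d stood at 72.1 and 91.9 CPM in knockout MII against 21.4 and 21.4 CPM in knockout GV, and at 95.7 and 103 CPM in control MII against 13.4 and 15.4 CPM in control GV (1.94 ± 0.28 and 2.79 ± 0.29 by genotype, adjusted p = 0.000327 and 5.8e-05). Trrap, Ttf2 and Chrac1 fell and Mcrs1 rose in knockout oocytes and did not pass in control, while Btaf1, Epc2 and Yy1 rose in control oocytes and did not pass in knockout. The interaction test called 0 of the 51, where 0.0835% of all genes passed. At an unadjusted p below 0.05 it held 3 of the 51 and 1787 of all 15572 genes. Pole3 and Chrac1, which pair in CHRAC, moved in opposite directions in knockout oocytes. Pole3 stood at 318 and 456 CPM in knockout MII against 123 and 128 CPM in knockout GV, while Chrac1 had 0 reads in these MII libraries and was thereby at least 29.6-fold lower than at GV.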

How the data were processed

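Total RNA of 8 oocyte libraries was sequenced. The deposited values are whole-number read counts per Ensembl gene. Per the submitters' processing notes, the authors used Bowtie2, HTSeq and edgeR with the mm10 build. Their versions, annotation release and strand setting: not given in the sources used here. Per the file headers, a column name of control MII occurs on both of its libraries, which were used as a and b with no number. HTSeq summary entries (32.24% to 35.13% of reads in GV libraries and 22% to 26.15% in MII libraries) stayed out. Symbols, coordinates and exon lengths came from GENCODE M21 (mm10), which names 54809 identifiers.

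Genes were filtered with filterByExpr (15572 kept), scaled by TMM and fitted with edgeR 4.0.16 (R 4.3.3) in 1 model of 4 groups (4 residual and 6.3 prior degrees of freedom, common biological coefficient of variation 0.507). Quasi-likelihood F-tests were two-sided, with Benjamini-Hochberg adjustment over all tested genes per contrast and a threshold of 0.05. The SE is the log2 fold change divided by the root of F. CPM are relative to reads in tested genes, with TMM; summed marker CPM are relative to all genes. Floors of 3 reads cover counting error only. Tests were also run on counts simulated with the fitted dispersions, with changes planted only in genes at a mean of at least 5 CPM. That run does not cover members with few reads, such as Rbbp4, Mta2 and Srcap. Alternatives included DESeq2 1.42.0. Named genes are all members, with full statistics for those called and for the 5 smallest p-values per contrast, and the called genes of the 51. The members, gene lists, motif search and rules were chosen with earlier results of these data known.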

Additional observations from a re-analysis of the deposited data

How the results depend on the processing

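Under the alternatives run, no fold change reversed among the 5 to 19 members per contrast called or with the 5 smallest p-values. Other members did change sign. At GV 24 of 36 were positive, beside 7725 of all 15572 genes. With library totals only, 21 of 36 were positive, where the median of all genes was -0.27. The member median at MII changed sign. There 20 of 36 were positive, beside 7259 of all 15572 genes. With library totals only, 17 of 36 were positive, where the median of all genes was -0.08. Counts for knockout against control at GV were 154 genes and 0 members. They were 527 and 1 with no filter on low counts, 526 and 2 with DESeq2, 770 genes when only the GV libraries were fitted, and 26 to 177 genes and 0 to 0 members when 1 library was left out. At MII (800 genes, 0 members) they were 1829 and 1 with no filter, 1773 and 4 with DESeq2, 2 members when only the MII libraries were fitted, and 365 to 763 genes and 0 to 0 members with 1 library left out. For the difference between stages (13 genes, 0 members) they were 1 gene with RLE size factors, 2 with library totals only, 498 with no filter, 41 above a mean of 5 CPM, 355 genes and 1 member with DESeq2, and 0 to 20 genes and 0 to 0 members with 1 library left out. For MII against GV, leaving out 1 library gave 5413 to 8046 genes and 13 to 19 members in knockout oocytes, and 5252 to 8217 genes and 15 to 21 members in control oocytes. The higher calls at GV numbered 93 and the lower 61, and 59 and 62 with library totals only. The calls that held in every alternative were 12 of 18 in knockout oocytes (Baz1a, Bptf, Cecr2, Chd7, Chd8, Mbd2, Mbd3, Gatad2b, Ruvbl2, Actr8, Hells and Smarcad1) and 14 of 19 in control oocytes (the same without Mbd2, with Smarca5, Ino80 and Atrx). With library totals only, the control call of Baz2b (adjusted p = 0.0838) and the knockout call of Smarca5 (0.0649) ended. A fit with the replicate number as a block gave 130 genes and 0 members at GV and 7027 genes and 18 members for MII against GV in knockout oocytes. Deviations of same-numbered libraries correlated at 0.119, -0.02 and 0.0127 across genes. With 1 difference per group this cannot show whether a shared number marks a shared source, so pairing stays unknown. No block was possible for contrasts with control MII, whose columns carry no number. With 2 libraries per group, members at under 3 CPM in every library such as Rbbp4, Mta2 and Srcap had SEs above 1 on the log2 scale. Only large changes in them were detectable. Members with more reads were limited too. Atrx at GV (1.11 ± 0.28) and Ino80 (-1.03 ± 0.29) and Baz2b (0.96 ± 0.27) at MII did not pass between genotypes. The 0 of 36 passing there thus does not show that the members were unchanged.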
